A study of Mus musculus with 18 samples.

Results

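Neurotensin is a short secreted peptide that is cut from a precursor encoded by Nts, which also yields neuromedin N. In the gut it is made by enteroendocrine cells, and in the brain by neurons. It acts on the G-protein-coupled receptors encoded by Ntsr1 and Ntsr2, of which NTSR1 signals mainly through Gq and phospholipase C, and it also binds sortilin, a sorting receptor encoded by Sort1. Convertases and carboxypeptidases mature such peptides, and extracellular and cytosolic peptidases break them down. The 4 genes Nts, Ntsr1, Ntsr2 and Sort1 are described here, of 32532 gene symbols in the E17 table, 4841 in the P0 table and 19450 in the P5 table. Nts was chosen by its measured level, which was higher in the double knockout at every stage, so its levels are a description and carry no test, and the 3 receptor genes were taken by name.

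RNA was sequenced from the epithelium of mouse molar tooth germs in 6 groups of 3 libraries. The mutant animals were labelled DKO, with the genotype Hmgn1-/- and Hmgn2-/-, and the controls were labelled WT, both sampled at embryonic day 17 (E17), birth (P0) and postnatal day 5 (P5). Both genes encode nucleosome-binding proteins, and the series asks how expression in the dental epithelium differs without them. Dispase was used to part the epithelium from the mesenchyme in all groups. The sources used here do not give strain, sex or whether tissue of several animals was pooled, so the spread between libraries may be technical. In bulk tissue, fewer or more cells that express a gene and less or more RNA per cell cannot be told apart.

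Values are reads scaled to transcript length in kilobases and to the mapped reads of the library (RPKM), added up over all transcripts of each gene and compared within a stage. A gene was tested where it reached 1 RPKM in at least 3 of the 6 libraries, with limma on log2(RPKM + 1), and log2 fold changes are on that scale, DKO over WT. "Rose" and "fell" are used of a gene with a Benjamini-Hochberg adjusted p under 0.05 in the same direction both as deposited and after scaling each library to a common upper quartile. Both scalings were used because all genes together were shifted: the median log2 fold change as deposited was 0.25 (E17), -0.05 (P0) and -0.25 (P5), and -0.0039, -0.04 and -0.06 after scaling. The P0 table holds chromosomes 1 and 10 and part of 11, so Ntsr1, Ntsr2, Sort1, Hmgn1 and Hmgn2 were not analysed here at that stage. Hmgn2 averaged 0.922 ± 0.0726 RPKM in DKO and 339 ± 17.5 RPKM in WT libraries at E17, and 8.29 ± 2.55 against 172 ± 9.63 RPKM at P5 (SD, n = 3 each). Hmgn1 was lower but not absent, with 90.6 ± 3.83 RPKM in DKO and 128 ± 5.19 RPKM in WT libraries at E17 and 71.5 ± 1.51 against 185 ± 5.55 RPKM at P5; which stretch was deleted is not stated in those sources. Of the 12 dental epithelium markers, all were measured at E17 and P5, and their summed level was 3060 to 3402 RPKM in DKO and 2365 to 2729 RPKM in WT libraries at E17.

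Nts lies on the minus strand of mouse chromosome 10 (chr10:102481756-102490486 in GRCm38/mm10, GENCODE M21) and is measured through 1 transcript of 1248 bases. Its promoter is shown because factors that bind 2 of its motifs are among the genes described further on. The sequence is from RefSeq (GRCm38.p6, minus strand), with bases numbered backwards from the RefSeq start at position 102490418. That start lies 68 bases inside the GENCODE transcript. The first stretch below ends where the GENCODE transcript begins (bases -250 to -69, chr10:102490487-102490668), and the second covers the matches between both annotated starts (bases -67 to -38, chr10:102490456-102490485). Capitals mark the motif matches.
Nts, bases -250 to -69: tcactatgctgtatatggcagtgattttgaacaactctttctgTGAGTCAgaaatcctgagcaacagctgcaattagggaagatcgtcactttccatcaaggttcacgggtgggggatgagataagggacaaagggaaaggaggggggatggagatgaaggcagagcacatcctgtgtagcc
Nts, bases -67 to -38: TGACATCAtcctcctgctcacaTATATATA

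The motifs were chosen after the sequence had been seen and were searched on both strands of the 250 bases before each of 32851 RefSeq gene starts. TGANTCA, the core bound by AP-1 (dimers of Fos, Jun and related proteins), matched from base -207 on and is held by 6.75% of those windows. TGACNTCA, a cAMP response element with any middle base, matched at bases -67 to -60 and is held by 7.49%. TATATA matched at bases -45 to -40 and, overlapping, at -43 to -38, and is held by 5.25%. The full palindrome TGACGTCA (1.55% of windows) and TATAAA (12.4%) had no match. In the rat gene, studied in a pheochromocytoma cell line, AP-1 and cAMP response elements of the promoter are known to act together.

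At E17, Nts had 54.5, 46.2 and 55.7 RPKM in the 3 DKO libraries, against 2.73, 2.72 and 2.78 RPKM in the 3 WT libraries. The WT libraries were nearly level, and the lowest DKO library stood 16.6-fold above the highest WT library. At P0, Nts had 74.0, 78.0 and 76.6 RPKM in DKO libraries, against 3.37, 2.37 and 3.25 RPKM in WT libraries. Here the DKO libraries lay close together and the lowest of them was 22.0-fold above the highest WT library. At P5, Nts had 208, 107 and 123 RPKM in DKO libraries, against 4.17, 6.69 and 7.6 RPKM in WT libraries. Both genotypes were most spread at this stage, with the first DKO library 1.95-fold above the second and the third WT library 1.82-fold above the first, yet the groups stayed 14.1-fold apart at their nearest. The groups did not overlap at any stage, as was also so for 64.7% of all genes tested at E17, 50.3% at P0 and 70.4% at P5.

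**Figure D1:**
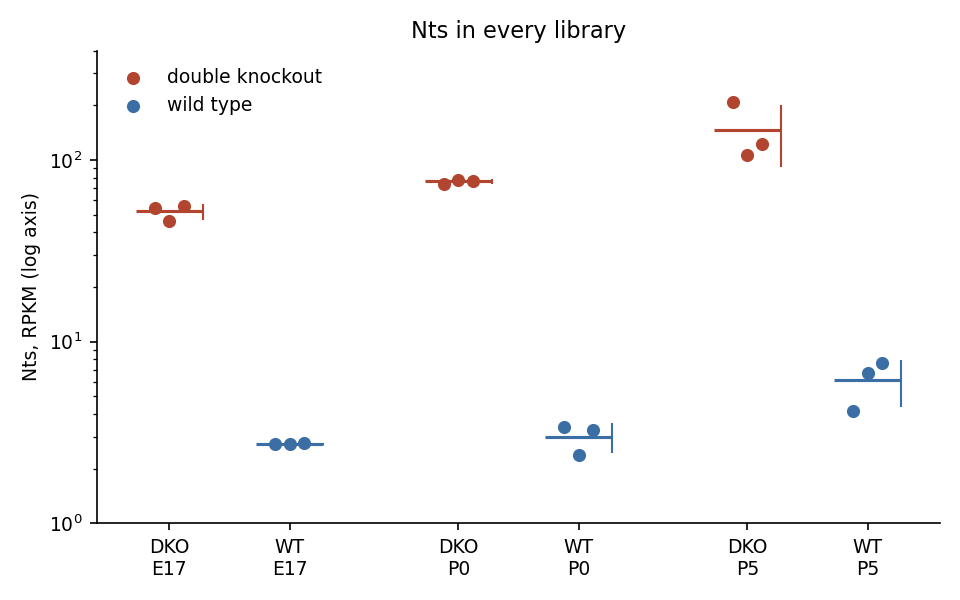
Nts level in RPKM on a log axis in each of 18 libraries (points), with the mean (horizontal line) and SD (vertical line) of each group of 3, double knockout (DKO) left of wild type (WT) at each stage. DKO libraries lie between 46.2 and 208 RPKM and WT libraries between 2.37 and 7.6 RPKM.

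Averaged, Nts had 52.2 ± 5.15 RPKM in DKO and 2.74 ± 0.0341 RPKM in WT libraries at E17 (SD, n = 3 each), a ratio of 19. At P0 the means were 76.2 ± 2.01 RPKM in DKO and 3.0 ± 0.548 RPKM in WT libraries, a ratio of 25.4. At P5 they were 146 ± 54.4 RPKM in DKO and 6.15 ± 1.78 RPKM in WT libraries, a ratio of 23.7. On the log2(RPKM + 1) scale the differences were 3.82 (SE 0.08) at E17, 4.28 (SE 0.10) at P0 and 4.33 (SE 0.23) at P5, and after upper-quartile scaling 3.57, 4.30 and 4.54.

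The level of Nts was highest in DKO libraries at P5, followed by DKO at P0, DKO at E17, WT at P5, WT at P0 and WT at E17. Only the last 2 neighbours in this order overlapped library by library. The 3 stages come from separately processed tables, the P5 one with other transcript names, so no test was made across them. The ratio of DKO means was 1.46 for P0 over E17 and 1.92 for P5 over P0, and that of WT means 1.09 for P0 over E17 and 2.05 for P5 over P0. Among the genes tested at each stage, Nts ranked far higher by level in DKO than in WT libraries. Its mean was above that of 90.5% of tested genes in DKO and 20.6% in WT libraries at E17, 93.0% and 17.7% at P0, and 97.7% and 41.1% at P5. The P0 shares cover only the chromosomes held at that stage, so they are not comparable with those of E17 and P5.

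Depth was estimated for every library. Read from the smallest steps of the values, 27.4 to 40.9 M reads (or fragments) were mapped per library at E17, 30.7 to 45.5 M at P0 and 16.7 to 30.7 M at P5. Nts then held an estimated 1896 to 2841 reads per DKO library and 94.3 to 131 per WT library at E17, 3015 to 4205 and 117 to 140 at P0, and 2232 to 6649 and 107 to 224 at P5. Counting error alone is then 1.23% to 2.12% of the value in DKO and 6.69% to 9.65% in WT libraries at P5, well under the 37.2% and 28.9% spread (SD over mean) seen there.

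Set against all genes tested, Nts had the largest log2 fold change of 2062 genes at P0 and of 11423 genes at P5, and the third largest of 13728 at E17, in both scalings. These ranks are for log2(RPKM + 1). With 0.1 added in place of 1, Nts stood at 4.20 at E17, below Cartpt, a neuropeptide precursor, at 4.27. The E17 rank thus depends on that setting. At P0 the next gene was Stac3, a regulator of muscle calcium channels, at 3.10. At P5 the next were Xist, the RNA that silences an X chromosome, at 2.88, Csn3, kappa-casein, at 2.57, and Amtn, the enamel protein amelotin, at 2.44. At E17 the neighbours in rank were genes of the cornified envelope: Lce3f at 4.55 and Lce3a at 4.18 above it, and Lce3e at 3.70, Crct1 at 3.66 and Lor (loricrin) at 3.23 below it. Lce3f, Lce3a and Lce3e averaged only 0.183, 0 and 0.341 RPKM in WT libraries. A log2 fold change of at least 1 was reached by 1.09% of genes tested at E17, 2.04% at P0 and 0.219% at P5. Nts alone reached it at both E17 and P5, of 11049 genes tested at both, and it alone reached it at all 3 stages, of 1735 genes tested at all; this restates the pattern for which it was picked.

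**Figure D2:**
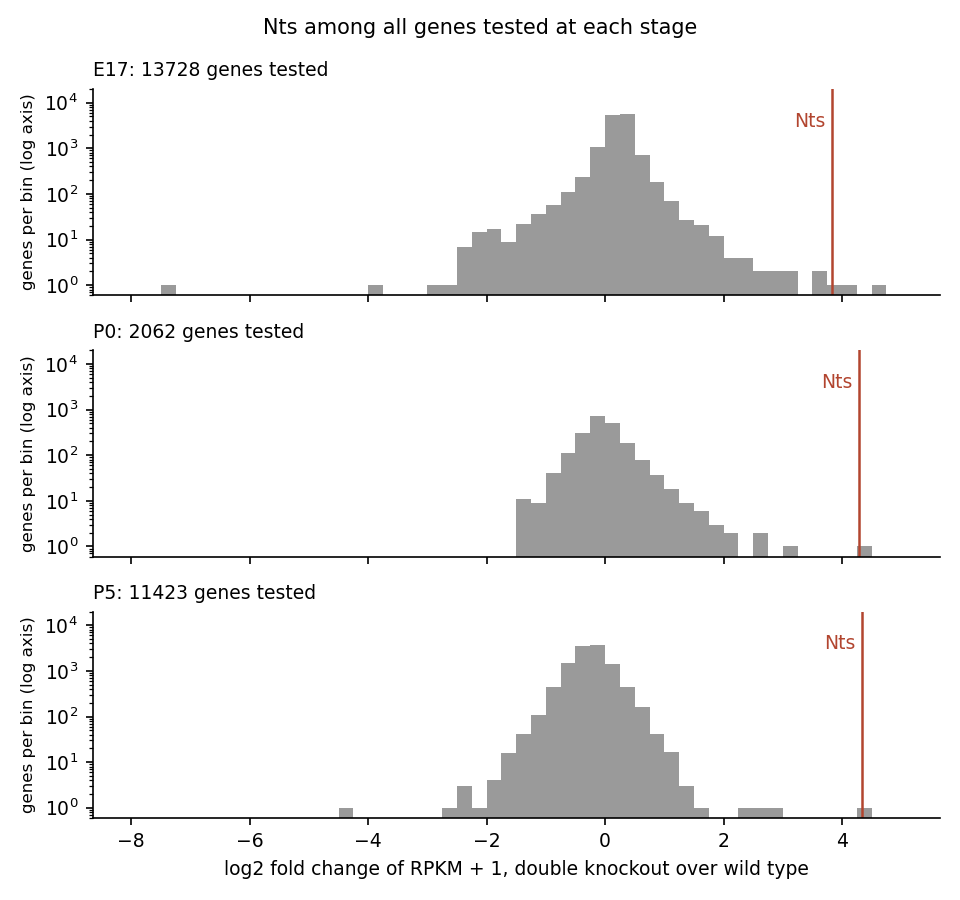
Number of genes (log axis) by log2 fold change of RPKM + 1, double knockout over wild type, in bins of 0.25, for all genes tested at E17, P0 and P5, with the value of Nts as a line. The line stands at 3.82, 4.28 and 4.33, at the upper end of each distribution.

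No other gene came near Nts by a measure that weighs the size of the difference as well as its shape. Likeness was taken as the root mean square difference between genes in log2(RPKM + 1), each taken relative to its own mean in the WT libraries of the same stage. Over 18 libraries and 1734 genes tested at all stages, the 5 nearest included Cd55 (a complement regulator, at 2.42), Lamb3 (a laminin chain of the basement membrane, at 2.55), Cpeb4 (2.55) and Tcn2 (2.56). Cd55 had 15.4 RPKM in DKO and 5.20 RPKM in WT libraries at P0, but 3.82 and 3.21 RPKM at E17. Over 12 libraries and 11048 genes tested at E17 and P5, they included Cdkn2b (an inhibitor of cyclin-dependent kinases, at 2.13), Rasgef1b (2.15), Il17rd (2.18) and Arrdc4 (2.21). Cdkn2b had 2.78 RPKM in DKO and 1.48 RPKM in WT libraries at E17 and 9.69 against 2.65 RPKM at P5. Each gene named here stayed over 2 log2 units from Nts by this measure. That distance in large part restates the choice of Nts for its high level in DKO libraries. Likeness in shape alone was not tested.

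The receptor genes did not show the change of Nts. Sort1 (chr3:108284082-108361511, plus strand) was the most abundant of them in every library of E17 and P5. At E17 it had 10.6, 12.2 and 12.3 RPKM in DKO libraries, against 11.2, 10.7 and 10.5 RPKM in WT libraries, and the groups overlapped. Its log2 fold change was 0.10 as deposited (SE 0.07, limma adjusted p = 0.240) and -0.16 after upper-quartile scaling (adjusted p = 0.0604), so the sign depends on the scaling. At P5 Sort1 had 5.37, 5.57 and 4.71 RPKM in DKO libraries, against 6.67, 5.96 and 5.78 RPKM in WT libraries. The P5 groups did not overlap, but the log2 fold change was -0.20 as deposited (SE 0.08, adjusted p = 0.0499) and -0.0085 after scaling (adjusted p = 0.932), which is no call. Of all genes, 9.69% were called at E17 and 38.1% at P5 in either direction. The genotype effect on Sort1 at E17 minus that at P5 was 0.30 as deposited (adjusted p = 0.0162) and -0.15 after scaling (adjusted p = 0.158), and 30.1% of genes passed that test in both scalings. Most Sort1 signal at E17 came from 1 of its 3 transcripts, which made up 59.1% to 69.1% in DKO and 63.7% to 71.5% in WT libraries.

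Ntsr1 (chr2:180499976-180544980, plus strand) was close to the lower end of what these libraries resolve. At E17 it had 0.263, 0.335 and 0.245 RPKM in DKO libraries, against 0.128, 0.0829 and 0.183 RPKM in WT libraries, an estimated 30.4, 43.1 and 39.3 reads against 16.7, 8.84 and 19.6. Every DKO library was above every WT library, as held in that direction for 60.9% of genes tested at E17, and the ratio of means was 2.14. It did not reach the level for testing. With no filter, limma gave a log2 difference of 0.18 (SE 0.04), with an adjusted p of 0.0451 as deposited and 0.174 after upper-quartile scaling, so Ntsr1 was not called. At P5 it had 0.00986, 0 and 0.00825 RPKM in DKO libraries, about 1 read in each of the libraries above 0, and was listed at 0 in all 3 WT libraries.

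Ntsr2 (chr12:16653382-16660227, plus strand) was lower still. At E17 it had 0.0483, 0.0705 and 0.131 RPKM in DKO libraries, against 0.199, 0.157 and 0.0470 RPKM in WT libraries, and the groups overlapped. At P5 it had 0.0284, 0 and 0 RPKM in DKO libraries, against 0, 0.0273 and 0.0785 RPKM in WT libraries. At this depth no difference in Ntsr2 was detectable at either stage. In DKO libraries of P5, where Nts had its highest mean, Ntsr1 and Ntsr2 each stood at or below 0.0284 RPKM in every library, and Sort1 averaged 5.22 ± 0.451 RPKM (SD, n = 3).

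**Figure D3:**
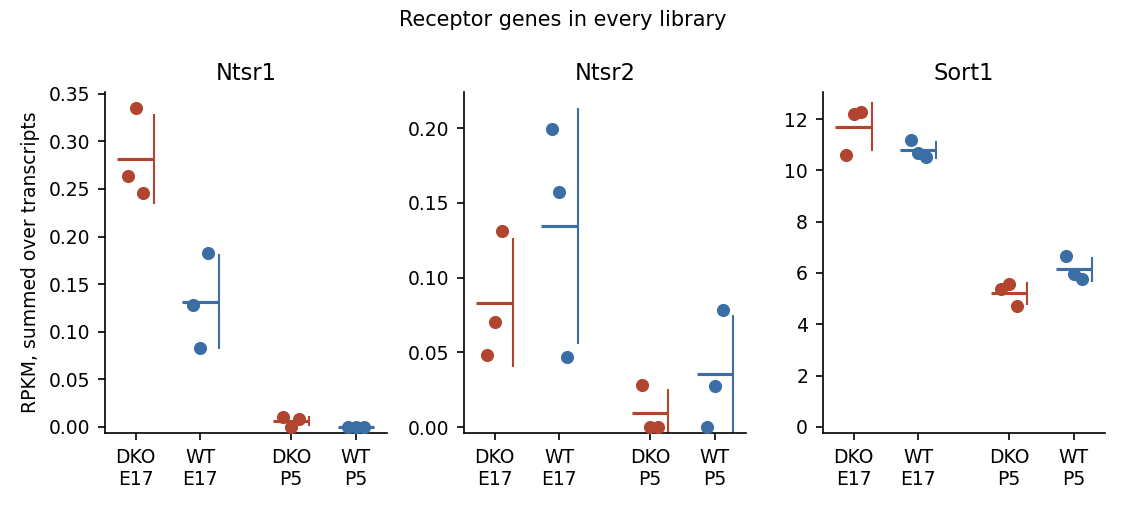
RPKM of Ntsr1, Ntsr2 and Sort1, each summed over its transcripts, in each library at E17 and P5 (points), with the mean (horizontal line) and SD (vertical line) of each group of 3, DKO left of WT. The vertical scales differ: Sort1 reaches 12.3 RPKM, Ntsr1 0.335 RPKM and Ntsr2 0.199 RPKM.

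The genes that mature peptides and store them in dense-core granules moved in few members at E17. Of 24 genes, 12 were tested at E17, of which 1 rose and 2 fell, against 6.61% of all genes called higher and 3.07% lower. Scg2 (secretogranin II, a granule protein) rose to 3.59 ± 0.613 RPKM in DKO, against 1.62 ± 0.393 RPKM in WT libraries. Cpz, a carboxypeptidase, fell to 2.44 ± 0.0644 RPKM in DKO, against 4.92 ± 0.493 RPKM in WT libraries, and Pcsk6, a convertase, fell by 0.21 on the log2 scale. The E17 calls of Scg2 and Pcsk6 were lost with no filter on low values, and without DKO library 3 or WT library 3, and that of Pcsk6 also without WT library 1 or 2. At P0, 3 genes were tested and 2 fell, against 16.7% of all genes called higher and 22.8% lower: Pam, which amidates peptides, by 0.37, and Cpd, a carboxypeptidase, by 0.34; the call of Pam was lost with no filter. At P5, 11 were tested, 1 rose and 5 fell, against 7.35% of all genes called higher and 30.8% lower. Pam had 27.3 ± 0.330 RPKM in DKO and 44.4 ± 1.55 RPKM in WT libraries, and Cpe, the main carboxypeptidase of granules, 21.3 ± 1.54 against 29.1 ± 0.186 RPKM; Pcsk6 and Rab27a, which docks granules, fell by 0.58 and 0.47. The calls of Cpe and Rab27a were lost with no filter and without WT library 3, and that of Rab27a also without DKO library 1 or 2 or WT library 1. The list median was -0.44 at P5 as deposited, against -0.25 over all genes, and 0.14 at E17, against 0.25.

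Of the convertases known to cut the neurotensin precursor, named here after their values had been seen, Pcsk2 rose at P5, to 2.15 ± 0.0929 RPKM in DKO, against 1.34 ± 0.274 RPKM in WT libraries (log2 fold change 0.44). Pcsk5 fell at P5, to 1.13 ± 0.141 RPKM in DKO, against 2.09 ± 0.455 RPKM in WT libraries (log2 fold change -0.53, limma adjusted p = 0.0021), a call lost with no filter and without DKO library 3, WT library 2 or WT library 3. At E17 Pcsk5 was not called, with 3.08 ± 0.241 RPKM in DKO and 3.51 ± 0.144 RPKM in WT libraries. At E17 Pcsk2 was below the level for testing, with 0.906 ± 0.0881 RPKM in DKO and 0.339 ± 0.0604 RPKM in WT libraries. Pcsk1 stood at 0.0387 RPKM in DKO and 0.0627 RPKM in WT libraries at E17 and at 0.115 against 0.0472 RPKM at P5. Furin, the convertase of the general secretory route, was not called, with 27.8 ± 2.71 RPKM in DKO and 22.7 ± 1.69 RPKM in WT libraries at E17 and 33.6 ± 2.03 against 30.6 ± 2.93 RPKM at P5.

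Among 7 peptidases that cleave neurotensin, none of the 7 tested was called at E17, although Thop1 (thimet oligopeptidase) had 25.5 ± 0.426 RPKM in DKO and 18.7 ± 1.42 RPKM in WT libraries; its adjusted p was 0.0022 as deposited and 0.195 after scaling. At P0 both members tested rose, against 16.7% of all genes called higher: Thop1 to 25.1 ± 1.23 RPKM in DKO, against 19.1 ± 0.747 RPKM in WT libraries, and Prep (prolyl oligopeptidase) to 10.1 ± 0.676 RPKM, against 7.15 ± 0.491 RPKM. At P5, 6 were tested and 3 fell, against 30.8% of all genes called lower. Thop1 had 8.66 ± 1.14 RPKM in DKO and 15.6 ± 1.72 RPKM in WT libraries, Prep 3.47 ± 0.277 against 6.60 ± 1.17 RPKM, and Nln (neurolysin) 1.89 ± 0.152 against 2.98 ± 0.153 RPKM. Mme, the cell-surface peptidase neprilysin, was not called at P5, with 28.6 ± 2.02 RPKM in DKO and 38.6 ± 7.87 RPKM in WT libraries. The list median was 0.30 (E17), 0.41 (P0) and -0.43 (P5), against 0.25, -0.05 and -0.25 over all genes.

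Of 17 relatives and partners of sortilin, 14 were tested at E17 and 1 fell, against 3.07% of all genes called lower: Sorcs2, a sortilin-family receptor, with 5.27 ± 0.433 RPKM in DKO and 6.58 ± 0.247 RPKM in WT libraries. At P0, 4 were tested and 2 fell, against 22.8% of all genes. Ngfr, the p75 neurotrophin receptor that pairs with sortilin, had 3.30 ± 0.513 RPKM in DKO and 9.50 ± 0.753 RPKM in WT libraries (log2 fold change -1.29, limma adjusted p = 2.72e-06), and Psap, a lysosomal cargo of sortilin, fell by 0.18, a call lost with no filter and without any 1 of 5 of the 6 libraries. At P5, 14 were tested and 2 fell, against 30.8% of all genes, among them Gga1, a trafficking adaptor, by 0.44, a call lost with no filter. The list median was 0.29 (E17), -0.15 (P0) and -0.30 (P5), near the 0.25, -0.05 and -0.25 of all genes.

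Of 22 genes of Gq and phospholipase C signalling, 20 were tested at E17 and 1 rose, against 6.61% of all genes called higher: Arrb1 (beta-arrestin 1), to 11.7 ± 0.677 RPKM in DKO, against 6.04 ± 0.699 RPKM in WT libraries. At P0, 5 were tested, against 16.7% of all genes called higher and 22.8% lower: Rgs4 rose by 0.40 and Rgs2 fell by 0.39; both encode inhibitors of G-protein signalling. Both P0 calls were lost with no filter and without DKO library 3, and that of Rgs2 also without DKO library 1 or WT library 3. At P5, 16 were tested, 3 rose and 4 fell, against 7.35% of all genes called higher and 30.8% lower. Rgs2 had 25.5 ± 1.23 RPKM in DKO and 16.7 ± 1.05 RPKM in WT libraries, and Itpr1, a calcium release channel, 18.3 ± 0.496 against 13.1 ± 0.479 RPKM. Plcb3, a phospholipase C, had 10.6 ± 0.186 RPKM in DKO and 16.2 ± 1.18 RPKM in WT libraries, and Gna11, a G-protein subunit of the Gq class, 16.1 ± 0.663 against 22.6 ± 0.777 RPKM. The list median was 0.17 (E17), -0.06 (P0) and -0.15 (P5).

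Of 21 AP-1, CREB and glucocorticoid receptor factors, 19 were tested at E17 and 3 rose, against 6.61% of all genes called higher. Junb had 21.1 ± 1.57 RPKM in DKO and 12.6 ± 0.560 RPKM in WT libraries, Batf 4.24 ± 0.336 against 2.07 ± 0.167 RPKM, and Batf3 10.8 ± 0.80 against 5.40 ± 1.10 RPKM; all 3 are AP-1 family members. At P0, 3 were tested and 2 fell, Atf3 by 0.48 and Batf3 by 0.64, against 22.8% of all genes called lower. With no filter, Batf3 was not called at either stage. At P5, 18 were tested, 2 rose and 5 fell, against 7.35% of all genes called higher and 30.8% lower. Atf3 had 3.12 ± 0.191 RPKM in DKO and 1.86 ± 0.216 RPKM in WT libraries. Batf had 1.02 ± 0.262 RPKM in DKO and 3.0 ± 0.271 RPKM in WT libraries, and Creb1, the main factor of cAMP response elements, 2.70 ± 0.148 against 4.98 ± 0.105 RPKM; Creb3 fell by 0.48, a call lost with no filter. No factor of this list rose at more than 1 stage, though only 3 were tested at P0, and a call needs both scalings. The part of these factors in the level of Nts was not tested. The list median was 0.20 (E17), -0.48 (P0) and -0.12 (P5).

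**Figure D4:**
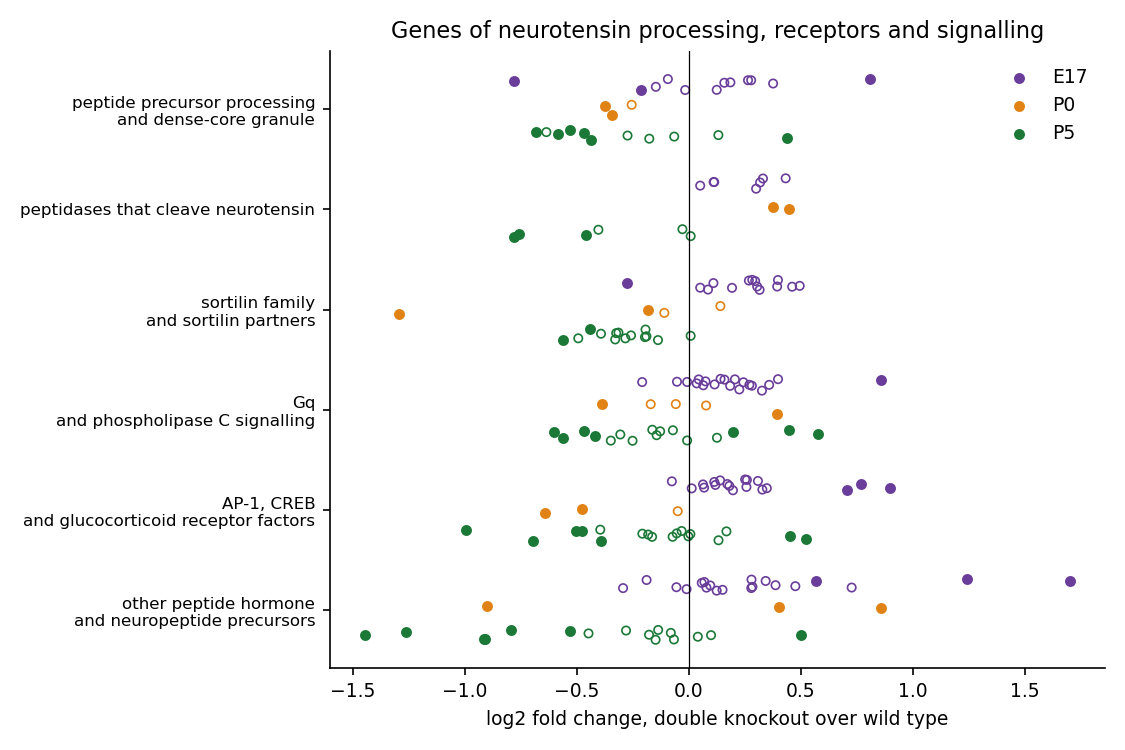
Log2 fold change of RPKM + 1, double knockout over wild type, of each tested gene of 6 lists by stage (colours); filled points were called in both scalings and open points were not. All values lie between -1.44 and 1.70, below the 3.82 to 4.33 of Nts, which is not drawn.

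On the log2(RPKM + 1) scale, the rises of other peptide precursors were smaller than the difference of Nts. Of 61 such genes, 20 were tested at E17 and 3 rose, against 6.61% of all genes called higher. Cartpt, a neuropeptide precursor, had 2.48 ± 1.27 RPKM in DKO and 0.0248 ± 0.0223 RPKM in WT libraries (log2 fold change 1.70), Pthlh, a hormone needed for bone and tooth eruption, 15.8 ± 2.31 against 6.14 ± 1.37 RPKM (1.24), and Nppc, C-type natriuretic peptide, 1.89 ± 0.243 against 0.953 ± 0.262 RPKM (0.57). With a pseudocount of 0.1 in place of 1, Cartpt stood at 4.27 at E17, against 4.20 for Nts. Cartpt passed the filter only through its DKO libraries, where it is high, and was not tested when any of them was left out. The E17 call of Nppc was lost with the replicate block, with a pseudocount of 0.1, with no filter, and without any 1 library other than WT library 1. At P0, 3 were tested, against 16.7% of all genes called higher and 22.8% lower: Tac2 rose by 0.86 and Nppc by 0.40, and Igf1 fell by 0.90. Tac2, like Cartpt at E17, passed the filter only through its DKO libraries and was not tested when any of them was left out. The P0 calls of Nppc and Igf1 were lost with no filter and without WT library 3, and that of Nppc also without DKO library 3. At P5, 16 were tested, 1 rose and 6 fell, against 7.35% of all genes called higher and 30.8% lower. Sct (secretin) had 2.26 ± 0.448 RPKM in DKO and 7.90 ± 1.58 RPKM in WT libraries, Cck (cholecystokinin) 3.58 ± 0.249 against 10.2 ± 2.77 RPKM, and Apln and Gal fell by 0.79 and 0.91. Secretin and cholecystokinin, like neurotensin, are hormones of enteroendocrine cells. At E17 Cck was not called, with 1.16 ± 0.203 RPKM in DKO and 0.977 ± 0.0217 RPKM in WT libraries, and Sct was below the level for testing, with 0.492 ± 0.194 against 0.881 ± 0.265 RPKM. The list median was 0.22 (E17), 0.40 (P0) and -0.23 (P5).

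The neighbours of Nts on the chromosome did not share its difference. Of 5 protein-coding genes on each side, 4 were tested at E17, 4 at P0 and 3 at P5. The nearest, Rassf9, starts 21.7 kb away on the plus strand. It had 2.67, 4.71 and 3.43 RPKM in DKO libraries, against 3.22, 3.19 and 3.07 RPKM in WT libraries at E17, and 10.3, 9.56 and 10.8 against 11.5, 9.59 and 11.4 RPKM at P0. At P5 it had 2.52, 23.6 and 26.0 RPKM in DKO libraries, against 31.4, 29.2 and 29.5 RPKM in WT libraries, the low value being that of the DKO library with the highest Nts. Rassf9 was not called at any stage (limma adjusted p = 0.458, 0.535 and 0.0888). About 2 Mb away, Cep290 rose at P0 by 0.44, and 4930430F08Rik rose by 0.33 at P0 and fell by 0.42 at P5. The genes Mgat4c, Alx1, Lrriq1 and Slc6a15 were below the level for testing, and Slc6a15 had 1.11 ± 0.231 RPKM in DKO and 0.583 ± 0.0486 RPKM in WT libraries at E17, but 0.369 ± 0.183 against 1.01 ± 0.221 RPKM at P0 and 0.169 ± 0.0503 against 0.353 ± 0.195 RPKM at P5.

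**Figure D5:**
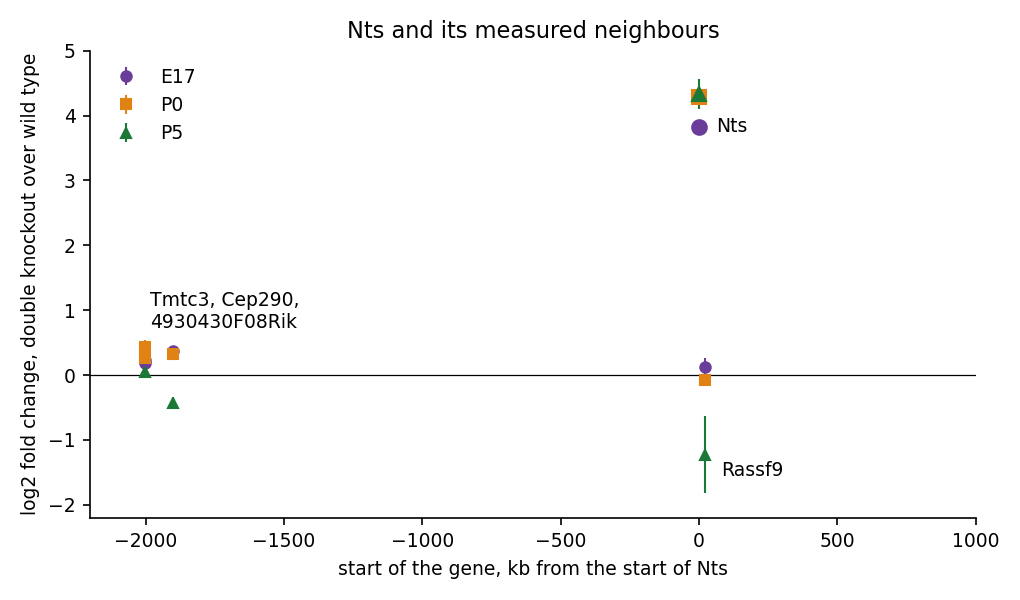
Log2 fold change of RPKM + 1, double knockout over wild type, of Nts and of its tested neighbours (error bars are SE) against the distance of the gene's start from that of Nts in kb, by stage. Nts stands at 3.82 to 4.33, and its neighbours between -1.22 and 0.44.

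Several markers of other cells moved with genotype, and their part in the level of Nts was not tested. Neuronal markers, which can accompany neurotensin, summed to 37.0 to 41.5 RPKM in DKO and 12.6 to 14.1 RPKM in WT libraries at E17 (12 of 12 in the table), and to 32.9 to 44.3 against 70.2 to 114 RPKM at P5 (11 of 12), the other direction. Most of each sum was Tubb3, with 24.3 RPKM in DKO and 7.25 RPKM in WT libraries at E17 and 30.7 against 81.6 RPKM at P5. Stmn2 went in the same directions, with log2 fold changes as deposited of 1.65 at E17 and -0.42 at P5. Elavl3, below the level for testing, had 0.458 RPKM in DKO and 0.0880 RPKM in WT libraries at E17 and 0.0541 against 0.0457 RPKM at P5. Neuroendocrine markers (7 of 8 in the table) summed to 3.15 to 4.33 RPKM in DKO and 2.02 to 2.58 RPKM in WT libraries at E17, and to 1.49 to 1.86 against 0.584 to 0.827 RPKM at P5. Of single markers in that list, Chga had 0.443 RPKM in DKO and 0.0805 RPKM in WT libraries at E17 and 0.0464 against 0.0780 RPKM at P5. Neurod1 had 0.297 against 0.0193 RPKM at E17 and 0.671 against 0.0830 RPKM at P5. Both genes were below the level for testing. Markers of lymphatic endothelium, which can express Nts, summed to 50.7 to 67.0 RPKM in DKO and 41.9 to 46.6 RPKM in WT libraries at E17, and to 16.1 to 17.5 against 20.8 to 22.2 RPKM at P5. Cornifying epithelium markers summed to 704 to 1454 RPKM in DKO and 542 to 717 RPKM in WT libraries at E17, and to 46.5 to 51.3 against 50.2 to 56.8 RPKM at P5. Of 11 tested at E17, 7 rose, against 6.61% of all genes called higher. Skeletal muscle markers summed to 366 to 477 RPKM in DKO and 412 to 928 RPKM in WT libraries at E17. Of 10 tested there, 7 fell, against 3.07% of all genes called lower, with a median log2 fold change of -0.98. Markers of mesenchyme and bone summed to 2319 to 2652 RPKM in DKO and 4292 to 4622 RPKM in WT libraries at E17, and to 996 to 1352 against 2248 to 2641 RPKM at P5. Of 11 tested at E17, 5 fell, and the median log2 fold change as deposited was -0.20, so the E17 sum does not describe most of them. Of 12 tested at P5, 7 fell and 1 rose, with a median of -0.83. Those of red cells summed to 10412 to 21299 RPKM in DKO and 5773 to 7233 RPKM in WT libraries at E17, and to 517 to 1186 against 1349 to 1480 RPKM at P5. Markers of dental epithelium itself summed to 198948 to 237457 RPKM in DKO and 111037 to 131654 RPKM in WT libraries at P5. Of the 12 tested there, 3 rose and 2 fell. Their median log2 fold change was -0.16 as deposited and 0.07 after scaling, so the sum does not describe most of them. The P0 table holds few of these markers. There, those of mesenchyme and bone (3 of 12) summed to 1796 to 2734 RPKM in DKO and 554 to 684 RPKM in WT libraries. This sum went the other way from E17 and P5, but of the 3 genes only 1 rose and 2 fell. Their median log2 fold change was -0.96, so the sum does not describe most of them. The red cell markers (2 of 8) summed to 883 to 1118 RPKM in DKO and 1356 to 1495 RPKM in WT libraries, and those of lymphatic endothelium (2 of 7) to 0.850 to 1.12 against 1.38 to 1.80 RPKM. A single marker was left for each of 3 lists, with 399 to 427 RPKM in DKO and 255 to 295 RPKM in WT libraries for dental epithelium, 0.310 to 0.393 against 0.177 to 0.297 RPKM for neurons, and 0.0956 to 0.140 against 0.130 to 0.225 RPKM for neuroendocrine cells.

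The P5 libraries also differed in X-linked and Y-linked transcripts. Xist had 29.0, 32.6 and 1.06 RPKM in DKO libraries, against 0.422, 0.769 and 1.06 RPKM in WT libraries, and the sum of 4 Y-linked genes was 2.93, 1.87 and 40.3 RPKM, against 45.6, 41.3 and 42.4 RPKM. The third DKO library therefore matched the WT libraries in both, and its 123 RPKM of Nts was 16.2-fold above the highest and 29.5-fold above the lowest WT library. At E17 all 6 libraries held both kinds of transcript, but in amounts that differed by genotype. Xist had 37.9, 13.3 and 34.7 RPKM in DKO libraries, against 52.6, 53.6 and 62.1 RPKM in WT libraries. The sum of the 4 Y-linked genes was 23.1, 42.0 and 29.9 RPKM in DKO libraries, against 13.8, 21.1 and 14.4 RPKM in WT libraries. The part of these differences in the level of Nts was not tested.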

How the data were processed

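The authors deposited RPKM per transcript; the unit was read from the values, since the deposited tables do not state it. Per the submitters' processing notes, the reads were processed with Partek (no version) on mm10; the sources used here name no aligner, annotation or strand setting. The file headers describe sorted alignment files with duplicates marked; the alignment counts the authors deposited per library were 65953495 to 99967427 (E17), 74845352 to 108920337 (P0) and 39209676 to 72660832 (P5). Mapped reads were estimated from the steps of low values, of which 76.3% to 92.0% were whole multiples within 0.1.

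Transcripts were summed per symbol. Each stage was fitted alone, without a replicate block, in limma 3.58.1 (trend, two-sided, R 4.3.3; pseudocount 1; at least 1 RPKM in 3 of 6 libraries), as deposited and with the upper quartile equalised. The fits were tested on simulated data. Members and gene lists were chosen with earlier results of these data known. Named are the 4 members, up to 4 called genes per list and stage by smallest p, those whose log2 fold change reached 1 in size, neighbours of Nts and the 5 genes most like it; others are marked, and a few are not reported here. Alternatives are in the closing section.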

Additional observations from a re-analysis of the deposited data

Results flagged for a closer look

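The genotype effect on Sort1 differed between E17 and P5 by 0.30 on the log2 scale as deposited (limma log2 fold changes 0.10 and -0.20, adjusted p of the difference = 0.0162), and by -0.15 after upper-quartile scaling (adjusted p = 0.158), so the difference rests on the scaling. A total of 6 genes of the described lists were called in opposite directions at 2 stages. Batf rose by 0.77 at E17 and fell by 0.99 at P5, and the difference between both effects passed the test as deposited (1.76, limma adjusted p = 1.25e-08) and after scaling (1.41, adjusted p = 1.64e-06). For the others the difference between stages was not tested. Batf3 rose by 0.90 at E17 and fell by 0.64 at P0. Thop1 rose by 0.38 at P0 and fell by 0.78 at P5, and Prep rose by 0.45 at P0 and fell by 0.76 at P5. Atf3 fell by 0.48 at P0 and rose by 0.53 at P5, and Rgs2 fell by 0.39 at P0 and rose by 0.58 at P5.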

How the results depend on the processing

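Nts stayed higher in DKO libraries under every alternative run, by 3.57 to 4.20 (E17), 4.16 to 4.64 (P0) and 4.05 to 4.54 (P5) on the log2 scale. It moved beyond the spread between libraries with a pseudocount of 0.1 (4.20 at E17, 4.64 at P0) and with upper-quartile scaling (3.57 at E17). With the pseudocount of 0.1, Cartpt (4.27) stood above Nts at E17, so the E17 rank of Nts depends on this setting. Sort1 changed sign with upper-quartile scaling at E17 (-0.16), as did its difference between stages (-0.15), and it passed at P5 in the deposited values alone (-0.20, limma adjusted p = 0.0499). The low Ntsr1 and Ntsr2 differences at E17 grew to 0.74 and -0.32 with a pseudocount of 0.1. Of the 5 genes most like Nts, 3 remained with that pseudocount in each set.

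Counts of genes over the whole table depended more on the settings. At E17, 908 were called higher and 422 lower in both scalings, 7735 and 453 in deposited values alone, 908 and 1103 with upper-quartile scaling alone, 533 and 271 with no filter, 125 and 85 where the log2 fold change also had to reach 1 in size, and 286 to 1104 and 207 to 428 with each library left out. Leaving out DKO libraries 1 (524), 2 (560) or 3 (286 and 243) or WT library 3 (388 and 207) moved a count by over 1.5 times. At P0, 345 and 470 became 42 and 20 with the fold threshold. At P5, 840 and 3515 became 841 and 6645 in deposited values alone, 2211 and 3515 with scaling alone and 23 and 170 with the fold threshold. Each library was also left out in turn for the list genes, an alternative added after the data were seen. Of called list genes, 8 of 11 at E17, 8 of 13 at P0 and 25 of 32 at P5 kept their call where tested. Cartpt (E17) and Tac2 (P0) are counted as kept, but failed the filter and were not tested when a DKO library was left out. Lost at least once were Nppc, Pcsk6 and Scg2 at E17, and Igf1, Nppc, Psap, Rgs2 and Rgs4 at P0. The losses at P5 included Cpe, Crtc1, Edn3, Pcsk5, Prkd1 and Rab27a. With no filter, 7 of 11, 6 of 13 and 23 of 32 were called, and Batf3 (E17 and P0), Pam (P0), Creb3 and Gga1 (P5) were lost as well. With the transcript of highest mean, 7 of 10, 12 of 13 and 21 of 28 were called, with Creb5 among those lost at P5.

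Replicate numbers were shared between genotypes, but same-numbered libraries did not deviate together (correlations of -0.02, 0.22 and -0.02 at E17, -0.17, 0.27 and -0.08 at P0, and -0.22, -0.07 and 0.04 at P5). With the replicate block, 721 and 457 genes were called at E17, 355 and 472 at P0, and 776 and 3171 at P5; of the list genes, the calls of Nppc at E17 and Prkd1 at P5 were lost. Depth limits Ntsr1 and Ntsr2, and with 3 libraries per group small differences such as those of Sort1 are not resolved apart from the scaling.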
